A study of Mus musculus with 8 samples.

Results

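The genes described here build, load and transcribe major histocompatibility complex (MHC) class I molecules, and include a pseudogene of the family. They were chosen by name. A row of the deposited table belonged to the set when its gene symbol, with case ignored, was H2-K1, H2-D1, H2-K2, B2m, Tap1, Tap2, Tapbp, H2-T23, H2-Q7 or Nlrc5. Each name matched 1 row, which gave 10 of the 27179 genes in the table. Levels are in RPKM, the reads of a gene scaled by its length and by the total of its library. All 10 passed the filter on low values, a mean of at least 0.5 RPKM over the 8 libraries, as did 12605 genes in all.

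The study asked how cadmium (Cd) given to the parents before birth changes the activation of T cells in the offspring. RNA was sequenced from sorted splenic CD4+ T cells of C.Cg-Foxp3tm2Tch/J mice aged 8 weeks, and the study names the sorted cells as CD25-negative conventional T cells. This strain carries a fluorescent Foxp3 reporter on a BALB/c background, and all 4 groups share it. Both parents of Cd offspring drank water with 10 ppm CdCl2 while they were mated, the dams stayed on it during pregnancy until about the time of birth, and the parents of control offspring drank unspiked water. Unstimulated cells were lysed at once, whereas stimulated cells were kept for 16 hours with beads carrying anti-CD3 and anti-CD28. No cells were cultured without beads, so culture and stimulation cannot be told apart. Each combination of parental water and stimulation had 2 libraries, numbered 6 and 7, and the study counts litters as independent replicates.

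The reads counted on genes numbered 17985243 and 16299663 in unstimulated control cells (libraries 6 and 7, in that order here and in all pairs that follow) and 15542732 and 19449725 after stimulation. For Cd offspring the numbers were 19419451 and 20538306 without and 21987821 and 25486791 with stimulation. The least abundant of the 10 genes, H2-K2, still had 312 reads in the library where it was lowest. The precision of the 10 genes is thus set by 2 libraries per group more than by counting.

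The labels were checked against markers. The summed level of 9 T cell markers, of which Trbc2 was the most abundant, was 4579 and 4417 RPKM in unstimulated and 2933 and 3012 RPKM in stimulated control cells. In Cd offspring that sum was 4436 and 4588 RPKM in unstimulated and 3039 and 3054 RPKM in stimulated cells. T cell transcripts were thus abundant in every library, and their sum was lower after stimulation. A sum of 6 activation genes (Il2ra, Cd69, Il2, Myc, Irf4 and Tnfrsf9) was 202 and 179 RPKM in unstimulated and 1307 and 1305 RPKM in stimulated control cells, and 166 and 149 against 1209 and 1259 RPKM in Cd offspring. All 4 stimulated libraries stood far above all 4 unstimulated ones, as labelled. Xist was present and the 4 Y-linked genes looked up were below 1 RPKM in all 8 libraries.

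Markers of other cells that carry class I molecules were looked up as well. Of 6 B cell markers, Ighm was the most abundant, and Ms4a1 was at 0 in every library. Their sum was 254 and 250.8 RPKM in unstimulated and 114.3 and 114.7 RPKM in stimulated control cells, and 279 and 256 against 114.6 and 118.5 RPKM in Cd offspring. Of 11 myeloid and dendritic markers, Cd14, S100a8, S100a9 and Siglech were at 0 in all libraries and Itgam was the most abundant. Their sum lay at 2.13 and 2.17 RPKM in unstimulated against 0.839 and 0.736 RPKM in stimulated control cells, and at 2.25 and 2.08 against 0.618 and 0.557 RPKM in Cd offspring. The sum of 3 NK cell markers, with Klrb1c the most abundant, was 4.61 and 5.83 against 0.147 and 0.410 RPKM in control offspring and 4.09 and 5.31 against 0.394 and 0.268 RPKM in Cd offspring. The sum of the CD8 markers Cd8a and Cd8b1, mostly Cd8b1, lay between 9.52 and 11.8 RPKM in all 8 libraries. The B cell sum was nearly all Ighm, at 250 and 247.7 RPKM in unstimulated and 109.8 and 109.9 RPKM in stimulated control cells, whereas Cd79a went the other way, from 3.35 and 2.87 to 4.17 and 4.15 RPKM in control and from 3.38 and 2.94 to 4.70 and 4.73 RPKM in Cd offspring. The myeloid and NK sums and Ighm were lower in stimulated cells, in the same direction as several class I genes, and their part in those results was not tested. In bulk samples such as these, fewer cells of a type and less RNA per cell cannot be told apart.

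Class I molecules stand on the surface of nearly all nucleated cells and show peptides from inside the cell to CD8 T cells and NK cells. A polymorphic heavy chain pairs with beta-2 microglobulin in the endoplasmic reticulum, where the transporter TAP brings in peptides cut by the proteasome and where tapasin, calreticulin and ERp57 hold the empty molecule until a peptide is bound. Classical heavy chain genes and B2m are driven in part by the NLRC5 enhanceosome on their promoters, and are raised by interferons and NF-kB. CD4 T cells, themselves restricted by class II, carry abundant class I on their own surface.

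The levels of the 10 genes spanned a wide range. B2m was the most abundant in each group, with group means of 2185 RPKM in unstimulated control, 2288 in unstimulated Cd, 1470.0 in stimulated control and 1434 in stimulated Cd cells. H2-K1 came next and H2-D1 after it in all 4 groups, and H2-K2 was the lowest of the 10 in all 4. Below the classical heavy chains the order depended on stimulation. In unstimulated cells of both kinds of offspring it was H2-Q7, H2-T23, Tapbp, Tap1, Tap2 and Nlrc5. In stimulated cells H2-Q7 came after H2-T23 and Tapbp, and the rest of the order was the same. Some neighbours in this order were not separated by their libraries: H2-Q7 and H2-T23 overlapped in both unstimulated groups, Tapbp and H2-Q7 in stimulated Cd cells, and Tap2 and Nlrc5 in every group but unstimulated control cells.

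**Figure D1:**
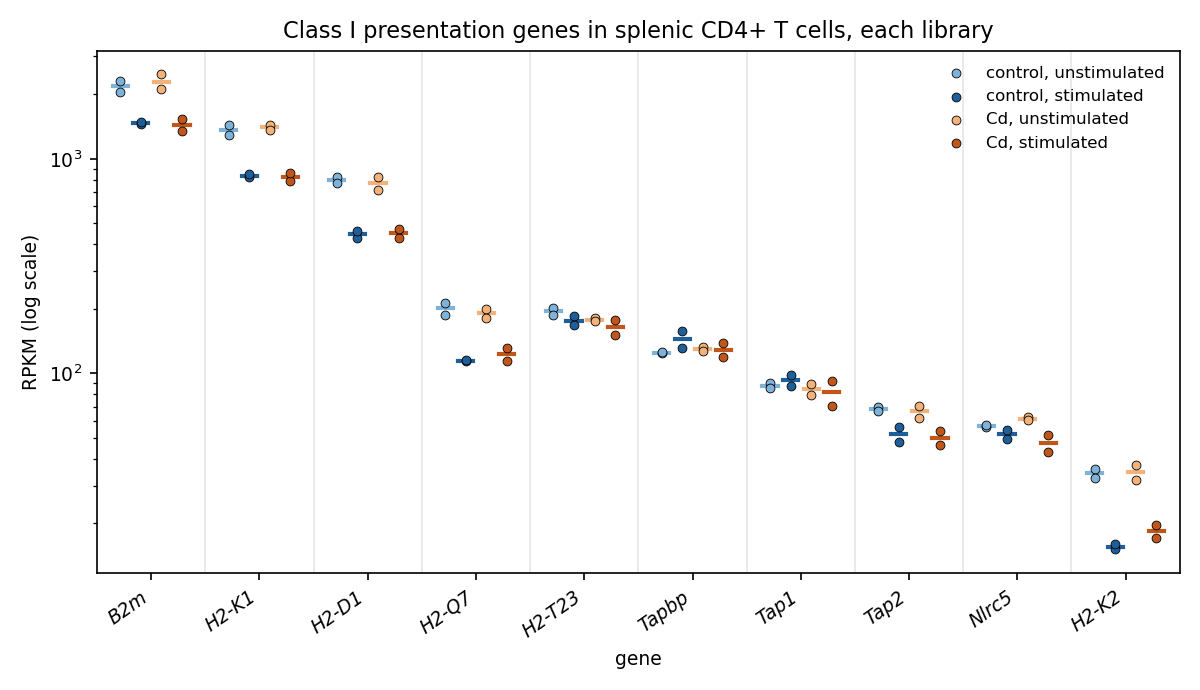
Level of each class I presentation gene in each of the 8 libraries, in RPKM on a log axis, with genes ordered by their mean in unstimulated control cells, points for libraries and short lines for group means. H2-K1, H2-D1, H2-Q7, B2m, Tap2, Nlrc5 and H2-K2 are lower in all 4 stimulated libraries than in all 4 unstimulated ones, and H2-T23, Tap1 and Tapbp are not.

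Stimulation was compared first, with genes called at an adjusted p under 0.01. In control offspring 5 of the 10 genes were lower after stimulation and 0 were higher. Of all 12605 genes tested, 21.8% were called lower and 29.9% higher in that comparison. The median log2 fold change was -0.48 over the 10 genes and 0.07 over all genes tested. H2-K2 was the only member also more than 2-fold lower, where 7.17% of all genes were.

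In Cd offspring 6 of the 10 were lower and 0 higher, beside 22.3% of all genes lower and 30.2% higher, and none was more than 2-fold lower, beside 7.24% of all genes. The median log2 fold change was -0.52 over the 10 and 0.05 over all genes. The 5 genes called in control offspring were the heavy chains H2-K1, H2-D1 and H2-Q7, the pseudogene H2-K2 and B2m. All 5 were called in Cd offspring too, and Nlrc5 was the sixth there. RPKM is a share of each library, so a lower value means fewer of the counted reads. The 10 genes together took 0.759% and 0.696% of reads in unstimulated and 0.484% and 0.516% in stimulated control cells. Among Cd libraries the share was 0.745% and 0.731% before and 0.453% and 0.516% after stimulation.

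**Figure D2:**
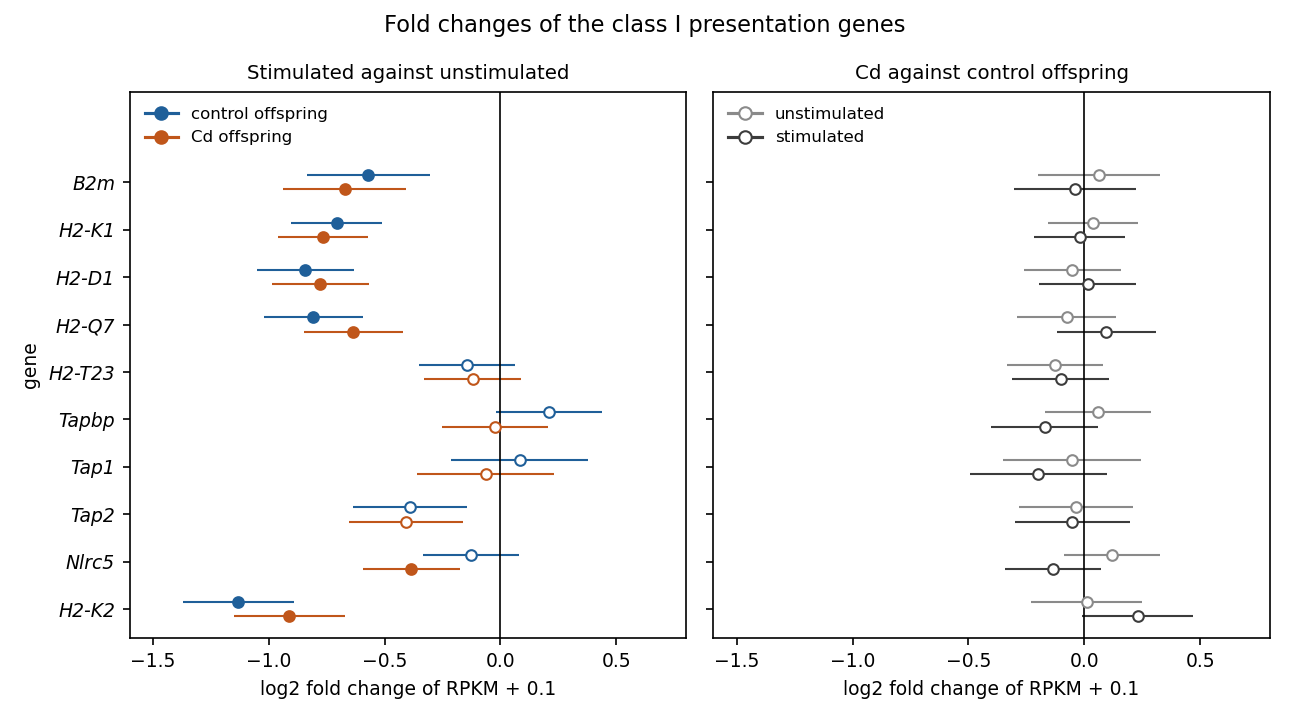
Log2 fold change of RPKM + 0.1 for each gene (points) with its 95% interval (lines) from the fit of all 8 libraries, for stimulated against unstimulated cells on the left and Cd against control offspring on the right. Filled points passed an adjusted p under 0.01 on the left, and no point passed 0.05 on the right. The intervals of H2-K1, H2-D1, H2-Q7, B2m, H2-K2 and Tap2 lie below 0 for both stimulations.

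H2-K1 (gene 14972, chr17:33996012-34000619 on the minus strand of GRCm38) encodes a classical heavy chain that presents peptides to CD8 T cells. It stood at 1439 and 1291 RPKM in unstimulated and 819 and 851 RPKM in stimulated control cells. In Cd offspring it stood at 1443 and 1357 RPKM in unstimulated and 785 and 862 RPKM in stimulated cells. Every stimulated library was below every unstimulated one, and control and Cd libraries overlapped in each state. The log2 fold change was -0.71 ± 0.08 (SE, adjusted p = 1.9e-04) in control and -0.77 ± 0.08 (adjusted p = 1.24e-04) in Cd offspring.

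H2-D1 (gene 14964, chr17:35263094-35267497, plus strand) is the other classical heavy chain of the set. Its values were 823 and 769.5 RPKM in unstimulated and 428 and 461 RPKM in stimulated control cells, and 825 and 716 against 427 and 470.5 RPKM in Cd offspring. Again no stimulated library reached an unstimulated one. The log2 fold change was -0.84 ± 0.09 (SE, adjusted p = 1.07e-04) in control and -0.78 ± 0.09 (adjusted p = 1.67e-04) in Cd offspring. The ratio of the RPKM of H2-D1 to that of H2-K1 was 0.572, 0.596, 0.522 and 0.542 in control libraries (unstimulated, then stimulated) and 0.572, 0.527, 0.544 and 0.546 in Cd libraries. It was lower after stimulation without overlap in control offspring, whereas in Cd offspring the stimulated pair lay between the unstimulated values, and this ratio was not tested.

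B2m (gene 12010, chr2:122147687-122153082, plus strand) encodes beta-2 microglobulin, the light chain shared by all class I molecules. It is the only member on chromosome 2, away from the H2 complex on chromosome 17. B2m had 2313 and 2056 RPKM in unstimulated and 1452 and 1487 RPKM in stimulated control cells, and 2105 and 2471 against 1341 and 1527 RPKM in Cd offspring. The unstimulated libraries all lay above the stimulated ones, with the widest spread in unstimulated Cd cells. The log2 fold change was -0.57 ± 0.11 (SE, adjusted p = 0.00292) in control and -0.67 ± 0.11 (adjusted p = 0.00126) in Cd offspring.

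The call for B2m was less steady than those for the heavy chains. Under quantile normalization, which forces all libraries onto 1 distribution, it was -0.13 (adjusted p = 0.281) in control and -0.32 (adjusted p = 0.0262) in Cd offspring. In control offspring it also missed 0.01 with no filter on low values (adjusted p = 0.0111), without unstimulated control library 6 (-0.48, adjusted p = 0.0166), without stimulated control library 6 (-0.55, adjusted p = 0.022) and without stimulated control library 7 (-0.59, adjusted p = 0.0166), and in Cd offspring without stimulated Cd library 6 (-0.58, adjusted p = 0.0141). Over 19 alternatives each, the adjusted p of B2m ranged from 3.4e-05 to 0.281 in control and from 6.34e-06 to 0.0262 in Cd offspring.

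B2m was also set against the heavy chains. The RPKM of B2m divided by the summed RPKM of H2-K1, H2-D1, H2-Q7 and H2-T23 was 0.864 and 0.844 before and 0.95 and 0.923 after stimulation in control cells, and 0.795 and 1.02 against 0.908 and 0.929 in Cd offspring. The ratio was higher after stimulation without overlap in control cells, whereas among Cd libraries the unstimulated pair lay on either side of the stimulated pair, and it was not tested. The position of B2m overlaps that of Patl2, which is annotated on the other strand. The sources used here do not give whether counting used strand, so reads of a gene and of its antisense partner cannot be told apart.

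H2-K2 (gene 630499, chr17:33974659-33978791, minus strand) is annotated as a transcribed pseudogene, which is to say a copy of a class I gene that is read into RNA without a known protein, and it lies close to H2-K1 in the complex. It was measured at 35.9 and 32.7 RPKM in unstimulated and 15.2 and 16.0 RPKM in stimulated control cells. In Cd offspring it was measured at 37.5 and 31.8 RPKM in unstimulated and 17.1 and 19.6 RPKM in stimulated cells. All stimulated libraries were below all unstimulated ones, and both stimulated Cd libraries were above both stimulated control libraries. H2-K2 fell by 1.13 ± 0.10 (SE, adjusted p = 4.52e-05) on the log2 scale in control offspring, the largest change among the 10, and by 0.91 ± 0.10 (adjusted p = 1.44e-04) in Cd offspring. The difference between the 2 responses was 0.22 ± 0.14 (adjusted p = 0.599).

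The pseudogene was set against its coding neighbour library by library. The level of H2-K2 was 2.5% and 2.53% of that of H2-K1 in unstimulated and 1.85% and 1.89% in stimulated control cells. Cd libraries had 2.6% and 2.34% before and 2.17% and 2.28% after stimulation. Each stimulated library had a lower share than each unstimulated one, and the gap was wider in control offspring. The log2 ratio of H2-K2 to H2-K1 was -5.33 ± 0.06 (SD, n = 4) in unstimulated and -5.62 ± 0.15 (SD, n = 4) in stimulated cells, a difference of -0.29 with an exact two-sided permutation p of 0.0286, the smallest that 4 against 4 libraries can give. Within control offspring the difference was -0.43 and within Cd offspring -0.15, with 2 libraries on each side and no test. With H2-D1 in place of H2-K1 the difference was -0.22, again at the smallest exact p, 0.0286.

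**Figure D3:**
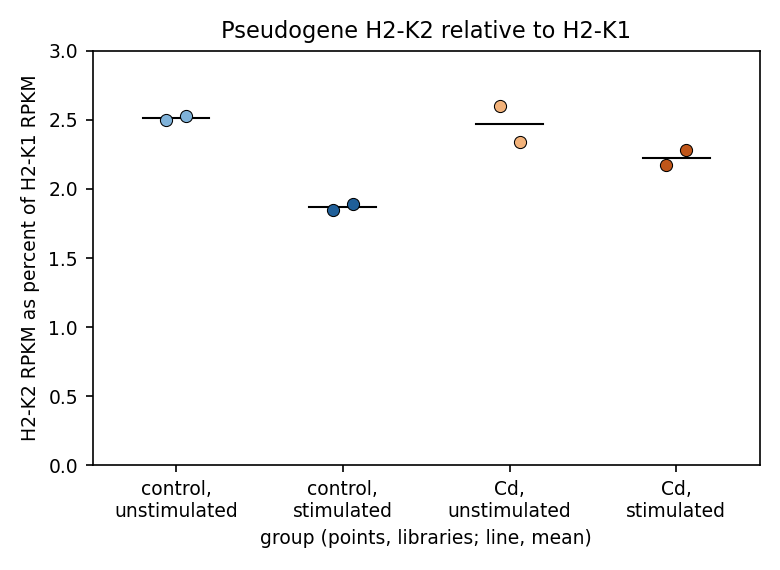
RPKM of the pseudogene H2-K2 as a percent of the RPKM of H2-K1 in each library (points) with the mean of each group (lines), on an axis from 0. The stimulated control libraries sit at 1.85% and 1.89%, the stimulated Cd libraries at 2.17% and 2.28%, and the unstimulated libraries between 2.34% and 2.6%.

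Class I genes resemble each other in sequence, and the sources used here do not give how reads that align to several places were counted. The likeness was therefore measured on the GENCODE transcripts of these genes. For each gene the transcript nearest in length to the gene length implied by the deposited values was taken. It was cut into all its stretches of a given length, and those that also occur in a transcript of another class I gene were counted. Of 1518 stretches of 50 bases in H2-K2, 158 (10.4%) occurred elsewhere in the family, 15 (0.988%) of them in H2-K1 and 79 (5.2%) in H2-T22. The share was 8.79% for H2-K1, 12.0% for H2-D1, 14.6% for H2-T23 and 31.5% for H2-Q7. At the read length of 150 bases 0 of 1418 stretches of H2-K2, 0 of 1470 of H2-K1 and 0 of 1323 of H2-T23 were shared. The counts were 35 of 1953 (1.79%) in H2-D1 and 133 of 1374 (9.68%) in H2-Q7. These counts come from the C57BL/6 reference, whereas the mice are on a BALB/c background with other class I alleles, and the effect of that difference on the counts of H2-K1, H2-D1, H2-K2, H2-Q7 and H2-T23 was not tested.

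TAP is a pair of half-transporters, and its genes lie close together on chromosome 17. Tap2 (gene 21355, chr17:34204479-34216321, plus strand) had 69.5 and 66.6 RPKM in unstimulated and 47.8 and 56.4 RPKM in stimulated control cells, and 70.8 and 62.3 against 46.5 and 53.9 RPKM in Cd offspring. The stimulated libraries were below the unstimulated ones without overlap, but the test was just missed: the log2 fold change was -0.39 ± 0.11 (SE, adjusted p = 0.0131) in control and -0.41 ± 0.11 (adjusted p = 0.0107) in Cd offspring. Tap2 passed 0.01 in 5 of 19 alternatives in control offspring (adjusted p from 0.00208 to 0.0844) and in 6 of 19 in Cd offspring (0.00116 to 0.0707), and those include both other scalings and limma voom on recovered reads. Of the libraries, leaving out stimulated control library 7 gave a pass in control offspring (-0.51, adjusted p = 0.00855), and leaving out stimulated control library 6 (adjusted p = 0.00823) or 7 (adjusted p = 0.00814) gave one in Cd offspring.

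Tap1 (gene 21354, chr17:34187556-34197225, plus strand), the partner subunit, had 89.8 and 85.3 RPKM in unstimulated and 87.7 and 97.9 RPKM in stimulated control cells. Its levels in Cd offspring were 89.6 and 79.4 RPKM in unstimulated and 70.5 and 92.4 RPKM in stimulated cells. The groups overlapped, and the widest spread was between the stimulated Cd libraries. The log2 fold change was 0.08 ± 0.13 (SE, adjusted p = 0.59) in control and -0.06 ± 0.13 (adjusted p = 0.679) in Cd offspring. In GENCODE Tap1 overlaps Psmb9, an immunoproteasome gene read in the other direction, and Tap2 overlaps Gm20496 and Gm15821, likewise on the other strand.

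Tapbp (gene 21356, chr17:33919478-33929290, plus strand) encodes tapasin, which bridges the empty class I molecule to TAP. Its values were 124.1 and 125.5 RPKM in unstimulated and 132 and 158 RPKM in stimulated control cells, and 132.5 and 128 against 119 and 138 RPKM in Cd offspring. Both stimulated control libraries were above the unstimulated ones, whereas in Cd offspring the stimulated pair enclosed the unstimulated pair. With log2 fold changes of 0.21 ± 0.10 (SE, adjusted p = 0.0972) in control and -0.02 ± 0.10 (adjusted p = 0.852) in Cd offspring, neither passed. Tapbp overlaps Gm19412, annotated on the other strand, and in GENCODE also Zbtb22 on the same strand.

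H2-T23 (gene 15040, chr17:36029977-36032701, minus strand) encodes Qa-1, a non-classical heavy chain that shows signal peptides of other class I molecules to NK cell receptors. It had 203 and 187 RPKM in unstimulated and 168 and 184.5 RPKM in stimulated control cells, and 181.5 and 175 against 151 and 178 RPKM in Cd offspring. The control groups did not overlap but came close, and the Cd groups overlapped. Neither change passed: -0.14 ± 0.09 (SE, adjusted p = 0.187) in control and -0.12 ± 0.09 (adjusted p = 0.264) in Cd offspring. H2-T23 overlaps A930015D03Rik on the other strand.

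H2-Q7 (gene 15018, chr17:35439140-35443773, plus strand) encodes Qa-2, a non-classical molecule that can be tethered to the membrane by a lipid anchor. It had 214 and 188 RPKM in unstimulated and 114 and 115 RPKM in stimulated control cells, and 199 and 181 against 114 and 131.5 RPKM in Cd offspring. Stimulated libraries were all below unstimulated ones. The log2 fold change was -0.81 ± 0.09 (SE, adjusted p = 1.5e-04) in control and -0.64 ± 0.09 (adjusted p = 5.53e-04) in Cd offspring, so this non-classical gene moved with the classical ones and H2-T23 did not pass. H2-Q7 was above H2-T23 in all 4 unstimulated libraries and below it in all 4 stimulated ones. On the C57BL/6 reference its near copy H2-Q6 shares 116 of its 1374 stretches of 150 bases (8.44%). Part of the H2-Q7 signal could therefore be read from either gene. Stretches shared with H2-Q8 and H2-Q9, or between BALB/c alleles, were not measured, so the size of this uncertainty is not known.

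Nlrc5 (gene 434341, chr8:94434335-94527272, plus strand) encodes the transactivator of class I promoters. Its levels were 56.1 and 57.2 RPKM in unstimulated and 49.7 and 54.2 RPKM in stimulated control cells. In Cd offspring its levels were 62.6 and 60.7 RPKM in unstimulated and 43.0 and 51.8 RPKM in stimulated cells. Stimulated libraries were below unstimulated ones in both kinds of offspring, by a small gap in control cells, and the unstimulated Cd libraries were above the unstimulated control libraries. The log2 fold change was -0.38 ± 0.09 (SE, adjusted p = 0.00626) in Cd offspring, which passed, and -0.13 ± 0.09 (adjusted p = 0.243) in control offspring, which did not. The difference between the responses, -0.26 ± 0.13 (adjusted p = 0.519), did not pass either.

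The Cd call for Nlrc5 held in 10 of 19 alternatives, with adjusted p from 5.17e-04 to 0.0304. It was lost without stimulated Cd library 6, the lowest of the 8 (-0.25, adjusted p = 0.0279), without unstimulated Cd library 6 (-0.36, adjusted p = 0.0304) or 7 (-0.41, adjusted p = 0.0196), and without unstimulated control library 6 or 7 (-0.38, adjusted p = 0.0125 each). With all libraries kept it was also lost, at the same -0.38, with no filter on low values (adjusted p = 0.0115), with no trend in the prior spread (adjusted p = 0.0179), with only the libraries of the comparison (adjusted p = 0.0202) and with a replicate block within exposure (adjusted p = 0.0105). Stimulated Cd library 6 was the lowest of the 8 for 9 of the 10 members, all but H2-K2, and for 7.85% of all genes tested. The margin was small for H2-D1 (427.1 against 427.6 RPKM in stimulated control library 6) and H2-Q7 (113.7 against 113.9 RPKM). Without this library 4 of the 10 members were called in Cd offspring in place of 6. It was the lowest as well for Psmb8, Psmb9 and Psmb10 of the immunoproteasome, for the interferon regulatory factor Irf1 (62.5 RPKM, against 91.5 RPKM in library 7) and for the class I gene H2-T24 (20.5 against 30.6 RPKM). Whether these values share a source was not tested. The locus of Nlrc5 also overlaps 9330175E14Rik on the other strand, and Mir7072 and Gm51584.

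Parental Cd was then compared with control within each state, with genes called at an adjusted p under 0.05. In unstimulated cells limma called 0 of the 10 genes, where 0.896% of all genes tested were called, and 0 of the 10 had an unadjusted p under 0.05, likewise by voom, where 1748 of all 12605 genes had one by limma. With quantile normalization 1 of the 10 did. Their log2 fold changes ran from -0.13 (H2-T23) to 0.12 (Nlrc5) with a median of -0.01, and the lowest adjusted p was 0.549. The 95% interval was -0.16 to 0.23 for H2-K1, -0.26 to 0.16 for H2-D1 and -0.20 to 0.33 for B2m. Changes within these bounds could not be told from 0 with 2 libraries per group.

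In stimulated cells limma again called 0 of the 10, and 0.0% of all genes (414 of 12605 had an unadjusted p under 0.05, and voom called 0 as well). None of the 10 had an unadjusted p under 0.05 by either tool, and the other alternatives with all libraries kept gave 0 or 1. Without stimulated Cd library 7 the median log2 fold change was -0.145 over the 10 and -0.00335 over all genes. With all 8 libraries, log2 fold changes ran from -0.20 (Tap1) to 0.23 (H2-K2), with a median of -0.05. H2-K2 was the closest to a difference, with a 95% interval of -0.01 to 0.47. The intervals of H2-K1 (-0.22 to 0.17), H2-D1 (-0.20 to 0.22) and B2m (-0.30 to 0.23) were centred near 0.

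The difference in response, Cd minus control, was tested as an interaction, and this comparison uses the same 8 libraries as the others. Limma called 0 of the 10, beside 0.357% of all genes. At an unadjusted p under 0.05 there were 0 by limma, beside 1332 of all 12605 genes, and 1 by voom. The other alternatives with all libraries kept gave 0. Without stimulated Cd library 7 the median difference was -0.125 over the 10 and -0.0105 over all genes. With all 8 libraries, values ran from -0.26 (Nlrc5) to 0.22 (H2-K2), and the lowest adjusted p was 0.519. Their median was -0.04 over the 10 and -0.01 over all genes. The responses of H2-K1 differed by -0.06 (95% interval -0.34 to 0.22) and those of H2-D1 by 0.07 (-0.23 to 0.36).

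Across the 8 libraries the 10 genes fell into genes that tracked H2-K1 and genes that did not. The Pearson correlation of log2(RPKM + 0.1) with H2-K1 was 0.993 for H2-D1, 0.985 for H2-Q7, 0.982 for H2-K2, 0.969 for B2m and 0.939 for Tap2. It was 0.838 for Nlrc5 and 0.646 for H2-T23. Tap1, at 0.0791, and Tapbp, at -0.31, did not follow. These are descriptions over 8 libraries that share the same split by stimulation, which sets most of each correlation.

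Among 8681 genes with a mean of at least 5 RPKM, those most like H2-K1 were Psmb10, Herpud2 and Mppe1, each with r = 0.997 over 8 libraries. Psmb10 encodes an immunoproteasome subunit that helps cut peptides for class I. The genes most like H2-K2 were Kcnab2, Tbc1d22b and Bcl7b (r = 0.995 each). Nlrc5 was nearest to Stat2 (0.973), which carries the signal of type I interferon receptors, then to H2-T24 (0.97), a class I gene, and to Scarna3b (0.952).

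Of 23 other class I genes listed, 19 were in the table and 13 were tested. Levels of H2-L, H2-Q5, H2-Q8 and H2-Q9 were not analysed here. The counts of this list and of the 5 that follow stand beside 21.8% of all genes lower and 29.9% higher in control offspring, and 22.3% lower and 30.2% higher in Cd offspring. In control offspring 9 of the 13 were lower and 1 higher, with a median of -1.01, and in Cd offspring 8 were lower and 1 higher, with a median of -0.75. Cd1d1, which presents lipids to NKT cells, stood at 16.1 and 15.4 RPKM in unstimulated and 5.47 and 5.55 RPKM in stimulated control cells, and fell by 1.50 (adjusted p = 1.75e-06) there and by 1.27 (adjusted p = 3.9e-06) in Cd offspring. H2-Q4 fell by 1.01 in control (adjusted p = 1.52e-04) and by 0.87 in Cd offspring (adjusted p = 3.4e-04), from 264 and 225 RPKM in unstimulated to 118.1 and 124.4 RPKM in stimulated control cells. H2-Q6 fell by 0.97 in control and by 0.62 in Cd offspring, the latter at an adjusted p of 0.0021. The Cd call was lost without unstimulated Cd library 6 (-0.59, adjusted p = 0.0133) and without stimulated Cd library 6 (-0.52, adjusted p = 0.0165). H2-M3, which binds formylated peptides, fell by 0.71 in control and by 0.88 in Cd offspring.

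H2-T9 went the other way. It was at 18.1 and 14.9 RPKM in unstimulated and 34.3 and 35.6 RPKM in stimulated control cells, and at 15.9 and 15.7 against 31.7 and 32.6 RPKM in Cd offspring. It rose by 1.09 ± 0.09 (SE, adjusted p = 2.75e-05) in control and by 1.02 ± 0.09 (adjusted p = 3.9e-05) in Cd offspring. Stretches shared with other class I genes were not measured for H2-T9.

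The 20 genes that supply and load peptides mostly moved opposite to the heavy chains. In control offspring 14 were higher and 1 lower (median 0.45), and in Cd offspring 13 were higher and 2 lower (median 0.38). Tapbpl was called lower in both (-0.48, adjusted p = 0.00582, and -0.67, adjusted p = 9.96e-04). Uggt1 was called lower in Cd offspring (-0.27, adjusted p = 0.00319). The largest rises were those of Thop1, which destroys peptides (2.66 in control and 2.67 in Cd offspring), Lap3 (2.02 and 1.84), Ide (1.72 and 1.53) and Blmh (1.36 and 1.36). Other peptidases of the list changed less. Npepps had 0.91 and 0.79, Nrd1 0.43 and 0.26, and Tpp2 0.21 and 0.09, the last not called (adjusted p = 0.123). Lnpep had negative values, -0.19 (adjusted p = 0.163) and -0.34 (adjusted p = 0.0243), and was not called. Thop1 went from 3.35 and 3.11 RPKM to 19.9 and 21.9 RPKM in control cells. In the endoplasmic reticulum Calr, which encodes calreticulin, rose by 0.62 and 0.59, and stood at 172 and 177 RPKM in unstimulated against 265 and 272 RPKM in stimulated control cells. Pdia3, which encodes ERp57, rose by 0.31 (adjusted p = 7.21e-04) and 0.22 (adjusted p = 0.00409). The Cd call for Pdia3 held in 11 of 19 alternatives. It was lost with median-of-ratios scaling (0.17, adjusted p = 0.0285), with quantile normalization (0.15, adjusted p = 0.0224), with no trend, with only the libraries of the comparison, with a replicate block within exposure, and without unstimulated Cd library 6 (0.19) and without stimulated Cd library 6 (0.23) or 7 (0.22). Erap1, the aminopeptidase that trims peptides to length, had 0.39 (adjusted p = 0.00273) in control and 0.19 (adjusted p = 0.0596) in Cd offspring. The control call was lost with median-of-ratios scaling (0.31, adjusted p = 0.0131), with quantile normalization (0.24, adjusted p = 0.0281) and without any of the 4 control libraries, and the Cd value passed without unstimulated Cd library 7 (0.30, adjusted p = 0.00618). The difference between the responses was -0.20 (adjusted p = 0.542).

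Of 10 proteasome genes, 7 were higher and 2 lower in control offspring (median 0.85), and 7 were higher and 3 lower in Cd offspring (median 0.92). The genes that rose encode subunits of the constitutive proteasome, proteasome activators and an assembly factor. Psme3 rose by 1.78 and 1.68, Psme2 by 1.22 and 1.51, Psmb5 by 1.20 and 1.07, Pomp by 0.93 and 0.93, and Psmb7 by 0.92 and 1.01. Of the subunits specific to the immunoproteasome, Psmb10 and Psmb9 were called lower in both kinds of offspring, and Psmb8 in Cd offspring. Psmb10 went from 59.2 and 55.2 RPKM to 29.6 and 31.9 RPKM in control cells and fell by 0.89 and 0.94. Psmb9 had 101.2 and 90.2 RPKM in unstimulated and 63.9 and 71.5 RPKM in stimulated control cells, and fell by 0.50 (adjusted p = 0.00796) and 0.60 (adjusted p = 0.0032). Psmb8 had log2 fold changes of -0.27 (adjusted p = 0.0124, not called) and -0.30 (adjusted p = 0.00838, called), with a difference of -0.02 (adjusted p = 0.946).

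These last 2 genes were near the threshold. Psmb9 passed in 9 of 19 alternatives in control offspring (adjusted p up to 0.054) and in 15 of 19 in Cd offspring (up to 0.016). In control offspring it was lost with no filter on low values, with no trend, with either replicate block, and when any of the unstimulated libraries or either stimulated control library was left out. In Cd offspring it was lost with no trend, without either unstimulated Cd library or without stimulated Cd library 6. Psmb8 passed in 10 of 19 alternatives in Cd offspring (up to 0.0628), and missed with no filter, with no trend, with only the libraries of the comparison, with a replicate block within exposure, and without any 1 of the 4 unstimulated libraries or without stimulated Cd library 6. In control offspring Psmb8 was called lower under both other scalings, by voom (-0.27, adjusted p = 0.00339) and without stimulated control library 7 (-0.36, adjusted p = 0.00761).

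The list of class I and class II promoter factors had 15 tested genes. In control offspring 10 were higher and 1 lower (median 0.43), and in Cd offspring 8 were higher and 2 lower (median 0.27). These counts include Kpna2 (0.72 and 1.13) and Kpnb1 (0.93 and 0.86), genes of nuclear import rather than promoter factors, called higher in both kinds of offspring. Of the 5 NF-kB genes listed, 4 led: Rel rose by 2.17 and 2.05, Nfkb1 by 1.99 and 1.87, Nfkb2 by 1.78 and 1.64, and Relb by 1.51 and 1.40. The fifth, Rela, was not called (-0.05, adjusted p = 0.645, and 0.01, adjusted p = 0.91). Nfkb1 went from 67.0 and 65.9 RPKM to 259 and 269 RPKM in control cells. Rfx5, which encodes a subunit of the complex that NLRC5 and CIITA join, rose by 0.48 (adjusted p = 8.22e-04) and 0.54 (adjusted p = 4.48e-04), from 6.05 and 6.20 to 8.36 and 8.86 RPKM in control cells. Its partners in that complex were not called and had negative values: Rfxap -0.45 (adjusted p = 0.0211) and -0.25 (adjusted p = 0.139), and Rfxank -0.35 (adjusted p = 0.054) and -0.30 (adjusted p = 0.0824). Rfxap was called lower in control offspring under both other scalings and by voom (-0.45, adjusted p = 0.00899). Ciita, the class II transactivator, lay between 0.111 and 0.289 RPKM in all libraries and was not tested.

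The interferon pathway was mixed. Of 17 genes tested, 3 were higher and 7 lower in control (median -0.12) and 3 higher and 8 lower in Cd offspring (median -0.32). Irf8, a transcription factor, rose by 4.69 and 4.65, from 2.36 and 1.60 RPKM to 49.4 and 56.7 RPKM in control cells. Cd274, which encodes the ligand PD-L1, rose by 2.75 and 2.52, and the kinase gene Jak2 by 1.07 and 0.99. Socs3, an inhibitor of cytokine signals, fell by 1.54 and 1.31. Ifng, the gene of interferon gamma, was at 9.03 and 7.57 RPKM in unstimulated and 2.93 and 3.02 RPKM in stimulated control cells, and fell by 1.44 (adjusted p = 0.00195) and by 1.87 (adjusted p = 4.98e-04). Its control call was lost without unstimulated control library 6 (-1.32, adjusted p = 0.0168) and without stimulated control library 6 (-1.42, adjusted p = 0.0128) or 7 (-1.47, adjusted p = 0.0109). Irf1, which carries the interferon signal to class I promoters, was not called, with -0.01 (adjusted p = 0.974) in control and -0.32 (adjusted p = 0.148) in Cd offspring.

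Of 11 class II genes listed, 6 were below a mean of 0.5 RPKM and 5 were tested, with 1 higher and 1 lower in control (median 0.12) and 2 higher and 1 lower in Cd offspring (median 0.18). Cd74, the invariant chain, rose by 2.01 and 1.62, from 2.55 and 2.65 to 9.69 and 12.0 RPKM in control cells. H2-Ob fell by 1.17 in control and by 0.57 in Cd offspring (adjusted p = 0.002), the latter lost without unstimulated Cd library 6 (-0.53, adjusted p = 0.0127) or stimulated Cd library 7 (-0.46, adjusted p = 0.0149). Of the 80 tested genes of the 6 lists, limma called 0 for Cd against control in unstimulated cells (10 at an unadjusted p under 0.05), 0 in stimulated cells (3) and 0 for the difference in response (6). Of all 12605 genes limma called 113, 0 and 45 (1748, 414 and 1332 at an unadjusted p under 0.05). For voom these numbers were 211, 0 and 111 (1824, 454 and 1456). Of the 80, voom called 1, 0 and 0 (11, 6 and 10 at an unadjusted p under 0.05). The 1 was H2-Q1, a low class I gene named after its value was seen, at -1.01 by voom (adjusted p = 0.019) and -0.97 by limma (adjusted p = 0.0932).

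Of all genes 21.8% were lower and 29.9% higher after stimulation in control offspring, and 22.3% and 30.2% in Cd offspring. Of the 9 T cell markers, 8 were lower and 1, Cd28, was higher, in both kinds of offspring. The lower ones ran from -0.46 (Trac) to -1.16 (Cd3g) in control and from -0.37 (Cd4) to -0.97 (Cd3g) in Cd offspring, and Cd28 had 0.48 (adjusted p = 9.04e-04) and 0.40 (adjusted p = 0.00217). In Cd offspring the call for Cd28 was lost without stimulated Cd library 6 (0.34, adjusted p = 0.0187) and with only the libraries of the comparison (adjusted p = 0.0102), and that for Trac, at -0.40, without stimulated Cd library 7 (-0.38, adjusted p = 0.0102). The changes of H2-K1, H2-D1 and H2-Q7, between -0.64 and -0.84, lay within the range of the lower T cell markers.

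The promoters of the members were read because several members moved together. RefSeq promoter entries of GRCm38.p6 were held for 7 of the 10, and the copy used here held no such entry for Tap2, Nlrc5 and H2-K2. The 200 bases before the annotated start were searched on both strands for 4 motifs: a kB motif (GGGANTNCC or GGGACTTTC), an interferon response motif (GAANNGAAA or GAAANNGAA), the core of the X2 box (TGACG) and the Y box (CCAAT). Of 32851 promoter windows of this length, 2.96% held the kB motif, 9.93% the interferon response motif, 15.7% the X2 core and 29.3% the Y box, and 10 windows (0.0304%) held all 4.

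H2-K1, H2-D1, H2-Q7 and B2m, the 4 members with an entry that were called in both stimulations, each held all 4 motifs. H2-Q4, of the other class I genes, held all 4 as well. The windows of these genes are themselves among the 10 that held all 4. The motif letters were chosen after the sequences of some members had been seen, so the share of all windows is no independent measure of how rare these matches are. Lower levels were also found without any of the motifs: Psmb10, which fell by 0.89 in control and 0.94 in Cd offspring, and Mr1, which fell by 1.38 and 1.20, each held 0. H2-T23 held the interferon response motif and the Y box, Tap1 held only the X2 core and Tapbp only the Y box. In H2-K1 the kB motif lies at -124 to -116, the interferon response motif at -104 to -96, the X2 core at -55 to -51 and Y boxes at -30 to -26 and -6 to -2, counted from the start. H2-D1 has the same order, from a kB motif at -170 to -162 to Y boxes at -76 to -72 and -53 to -49. In B2m the interferon response motif, at -139 to -131, comes before the kB motif, at -125 to -117. A match is a description of letters in a window, whether any factor was bound was not measured, and motif content was not tested against the fold changes.

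**Figure D4:**
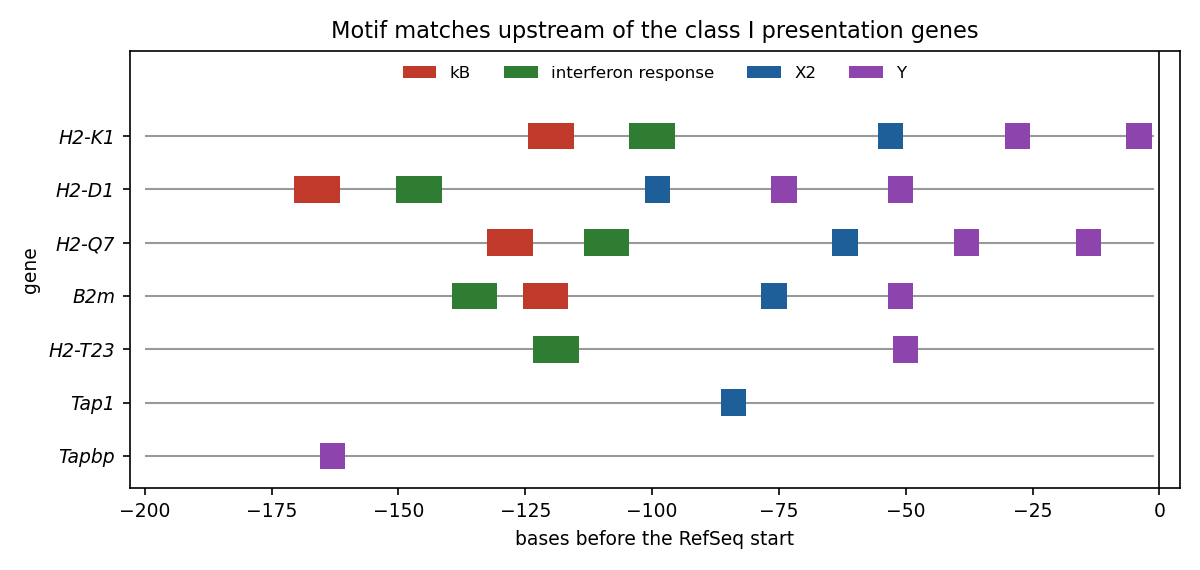
Positions of motif matches on either strand in the 200 bases before the RefSeq start of the 7 members with a promoter entry, with the start at 0 on the horizontal axis in bases and 1 line per gene. H2-K1, H2-D1, H2-Q7 and B2m carry all 4 motifs, H2-T23 carries 2, and Tap1 and Tapbp carry 1 each.

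The sequences below, with matches in capitals, show the 4 motifs in a classical gene, a non-classical gene and B2m, which lies on another chromosome. They are the windows before the start, read 5′ to 3′, at chr17:34000348-34000533 on the minus strand for H2-K1 (186 bases, ending at -15), chr17:35438955-35439154 on the plus strand for H2-Q7 (200 bases) and chr2:122147487-122147685 on the plus strand for B2m (199 bases, ending at -2), from RefSeq on GRCm38.p6. RefSeq gives 2 starts for H2-K1, at 34000347 and 34000333, of which the second was used, and the windows of both hold all 4 motifs. The start used lies 286 bases inside the gene position given above for H2-K1 and 15 bases inside that for H2-Q7, and for B2m it is the first base of the position.
H2-K1: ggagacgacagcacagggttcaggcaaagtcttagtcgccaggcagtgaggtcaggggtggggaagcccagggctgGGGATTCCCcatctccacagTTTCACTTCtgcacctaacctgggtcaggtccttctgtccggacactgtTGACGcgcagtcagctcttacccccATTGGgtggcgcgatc
H2-Q7: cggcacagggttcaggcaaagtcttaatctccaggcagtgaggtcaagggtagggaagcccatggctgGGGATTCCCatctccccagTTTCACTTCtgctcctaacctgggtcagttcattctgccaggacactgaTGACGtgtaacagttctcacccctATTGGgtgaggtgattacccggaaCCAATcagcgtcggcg
B2m: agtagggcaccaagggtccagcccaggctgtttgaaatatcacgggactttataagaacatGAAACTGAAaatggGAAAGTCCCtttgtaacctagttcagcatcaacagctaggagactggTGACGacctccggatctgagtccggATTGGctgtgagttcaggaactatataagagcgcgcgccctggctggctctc
H2-K1 and H2-Q7 both hold GGGATTCCC for the kB motif and TTTCACTTC, the reverse strand of an interferon response motif, followed by TGACG and ATTGG. B2m holds GAAACTGAA, then GAAAGTCCC, the reverse strand of the second kB form, before the same last pair.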

How the data were processed

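RNA was sequenced in 8 libraries of splenic CD4+ T cells, 2 for each of 4 groups taken from the labels. Per the submitters' notes and the paper, the authors used Subread and featureCounts, with mm10 and RefSeq. The versions, strand setting and treatment of multi-mapping reads are not given in the sources used here. The deposited values are on a log2 scale, log2(RPKM + 1) + 0.0001. RPKM had been planned for, so values were back-transformed first. Low values step by whole reads, which gave the reads and the total of each library. The scale of the totals was chosen so that nearly all implied gene lengths in a subset of genes were whole. In that subset 99.5% were counted as whole, at a tolerance that is not stated here, so this share is no independent check. Genes at or above a mean of 0.5 RPKM were fitted as log2(RPKM + 0.1) with limma 3.58.1 (R 4.3.3), with 4 group means, empirical Bayes moderation with a trend, and Benjamini-Hochberg adjustment over 12605 genes. Fold changes are on this log2 scale, which understates changes of low genes, and intervals are 95%. The pipeline was tested on simulated data. The ratio of H2-K2 to H2-K1 was tested by exact permutation (scipy 1.17.1). Named were the members, of each list up to 4 called genes with the largest change at a mean of at least 5 RPKM, 10 genes fixed by name, and up to 3 genes most correlated with H2-K1, H2-K2 and Nlrc5. Psmb10, Mr1, Rela, Rfxap, Rfxank, Kpna2, Kpnb1, Npepps, Nrd1, Tpp2, Lnpep, Tapbpl, Uggt1, H2-T24 and the T cell markers were added, as values beside these, after their values were seen. The second comparison of a gene named in the first was added in the same way. Some of the genes this rule selects are not reported here. Members and lists were chosen with earlier results of these data known, and motif letters after the sequences of some members had been seen. Alternatives covered pseudocounts, filters, scalings, the trend, the libraries fitted, replicate blocks, limma voom on recovered reads and each library left out. Coordinates are from RefSeq and strands and transcripts from GENCODE M21. Tables and plots used pandas 2.3.3, numpy 2.4.6 and matplotlib 3.10.9 in Python 3.11.15.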

Additional observations from a re-analysis of the deposited data

How the results depend on the processing

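The counts of members called ranged over the other settings from 4 to 6 in control and from 5 to 7 in Cd offspring for stimulation, and with each library left out from 4 to 5 and from 4 to 7. They were 0 in all alternatives for Cd against control and for the difference in response. H2-K1, H2-D1, H2-K2 and H2-Q7 kept their calls in both stimulations in all 19 alternatives each. Of 920 alternative values of single members, 893 kept their side of the threshold, 16 lost a call, 11 gained one and 0 reversed a called direction. The 44 values of uncalled members that changed sign are among those that kept their side. The number of members more than 2-fold lower in Cd offspring, 0 as reported, was 1 with quantile normalization and 0 to 1 with each library left out. The 1 was H2-K2, without unstimulated Cd library 7 or stimulated Cd library 7. Quantile normalization moved the median of all genes by -0.10 for stimulation in control offspring. Under it 3197 of 6550 called genes were higher in control and 3212 of 6676 in Cd offspring. The reported fit had 3773 of 6519 and 3807 of 6620, and median-of-ratios scaling 3357 of 6516 and 3451 of 6622. For other named genes the same alternatives were chosen after seeing the data: of 1786 values 1727 kept their side, 47 lost a call and 12 gained one. The stimulation counts of the lists are from the reported fit alone.

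The log2 ratio of H2-K2 to H2-K1 differed by -0.34 to -0.24 with each library left out, always with an exact permutation p of 0.0571, the smallest that 3 against 4 allow. With the number as a replicate block it was -0.29 with an exact sign-flip p of 0.125, the smallest that 4 differences allow. The replicate block left 5 and 6 members called for stimulation, and a block on the number within each kind of offspring left 5 and 5, without Nlrc5 (adjusted p = 0.0105). Libraries with the same number did not deviate together across the 12605 genes (r of 0.06 between unstimulated and stimulated control and 0.01 between unstimulated and stimulated Cd cells), and the sources used here do not give whether equal numbers pair samples. A fit without 1 library assumes that its partner varies like the other groups. With 2 libraries per group, the 95% intervals of the Cd comparisons reached as far as -0.49 (Tap1) and 0.47 (H2-K2), both in stimulated cells.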
